A study of Homo sapiens with 10 samples.

Results

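NMYC-overexpressing and parental 22Rv1 cells were compared directly at T12, the last time point of a genome-wide CRISPR knockout screen, without reference to a T0 library. 22Rv1 is an established human prostate cancer cell line. The comparison took 4 of the 10 libraries of the series, chosen by their labels: 2 replicate cultures of the NMYC-overexpressing derivative and 2 of the parental line. Both arms had been infected at a multiplicity of 0.3 with a lentiviral pool that carries Cas9 and 1 sgRNA per virus, selected with puromycin and passaged every 72 hours. The labels also give a coverage of 300x and 12 generations for both arms. The pool held 65000 sgRNAs according to the labels, and the deposited table lists 55849, identified by library number without their sequences. The sources used here do not give how NMYC was expressed, whether the derivative is a single clone, or the unit behind T12. Counts of sgRNAs in genomic DNA carry no expression, so neither the identity of the line nor the level of NMYC could be checked.

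MYCN encodes N-MYC, a transcription factor that pairs with MAX on DNA, drives ribosome production and growth, and is amplified or overexpressed in neuroendocrine prostate cancer. A knockout that slows growth removes its sgRNA from a culture, and one that speeds growth enriches it. A synthetic dosage lethal gene is one whose loss harms only cells with too much of another gene product, and its sgRNAs should become scarcer in the overexpressing arm. The series was designed to look for such genes, and its title names NEUROG2, a proneural transcription factor. A comparison at T12 alone reads the end state and, having no T0 term, takes in any difference in how often an sgRNA entered each arm.

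The T12 libraries held 16545354 and 16917672 counts in parental cells and 13192046 and 16321172 in NMYC cells. Median counts per sgRNA lay between 82 and 132, and 5.45% to 9.15% of the sgRNAs were at 0 in a library. After leaving out sgRNAs with a mean count under 20 over the 4 libraries, 50059 remained, 885 of them non-targeting controls. The test covered 17721 genes that kept 2 sgRNAs or more, and 12834 of these had 3. PCR reads counted with no molecular identifier overstate the number of molecules, so depth limits counting error only.

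Replicate cultures differed from each other about as much as cultures of different arms. The parental replicates had a Spearman correlation of 0.255 over the kept sgRNAs, and the 4 pairs across arms ran from 0.234 to 0.272. The NMYC replicates, at 0.326, lay above all pairs across arms. Of the sgRNAs, 47.3% differed over 4-fold between the parental replicates and 43.2% between the NMYC replicates, against 42.6% to 49.1% across arms. The sgRNAs of one library are not independent replicates, and all pairs share the sgRNA pool. The replicate cultures of an arm were plated after selection, so the p-values below measure spread that arose in culture and not between infections.

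No gene and no single sgRNA passed the test. Genes were scored by rank aggregation over their sgRNAs, ordered by the signed p of edgeR's quasi-likelihood test, and adjusted over all genes by the Benjamini-Hochberg method. At an adjusted p under 0.05, 0 of 17721 genes (0%) were lower in NMYC cells and 0 (0%) were higher. At an unadjusted p under 0.05 there were 890 lower genes (5.02%) and 867 higher genes (4.89%). Rank aggregation on p-values from DESeq2 also gave 0 and 0 after adjustment, with 887 and 850 unadjusted, and edgeR on counts summed per gene gave 0 and 0, with 386 and 397 unadjusted. Of the 50059 sgRNAs, 0 passed in edgeR in either direction (0%), whereas DESeq2 called 1411 lower and 1179 higher. In edgeR 1810 sgRNAs (3.62%) had an unadjusted p under 0.05 on the lower side and 1504 (3%) on the higher side. The edgeR dispersion common to all sgRNAs was 1.42, with 2 residual degrees of freedom.

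Non-targeting controls, which cut no gene, gave the background of the assay. Of the 885 kept controls, 143 lay over 4-fold lower in NMYC cells (16.2%), against 18.6% of the targeting sgRNAs, and 21.1% lay over 4-fold higher, against 19.4%. Their interquartile range ran from -1.22 to 1.67 on the log2 scale relative to the median sgRNA, and that of the targeting sgRNAs from -1.44 to 1.48. The spread of the controls was thus close to that of sgRNAs that target genes. At an unadjusted p under 0.05 the controls had 1.92% lower and 2.94% higher, against 3.65% and 3.01% of the targeting sgRNAs.

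Gene levels below are CPM (counts scaled by library total and TMM factor) summed over the kept sgRNAs of a gene. A log2 value is NMYC minus parental, from the group means plus 0.5 CPM and relative to the median gene, which had moved by -0.093. Values named for their rank did not pass the test.

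The lowest ranked genes in NMYC cells with 3 sgRNAs were OGFOD3, C20orf201 (now LKAAEAR1), ARPP21, STX18, SLC27A2, BTNL9, NOC2L, OR8B12, ANP32B and SCAND3, all with an adjusted p of 0.975. OGFOD3, a predicted iron-dependent oxygenase, had 301 and 105 CPM in the parental libraries and 18.3 and 23.6 in the NMYC libraries (203 ± 138 against 21.0 ± 3.74, SD, n = 2; log2 value -3.15). C20orf201 had 52.9 and 80.5 CPM against 1.29 and 1.62 (-5.01). NOC2L, a nucleolar protein that binds histones, had 18.8 and 111 CPM against 0.388 and 5.48 (-4.15). In all 3 genes both NMYC libraries lay below both parental ones, and all 3 sgRNAs had a negative log2 fold change by edgeR. In each gene, however, only 1 sgRNA was lower in both NMYC libraries than in both parental ones. The other sgRNAs of C20orf201 were each abundant in a single parental culture, with 2 and 554 counts against 0 and 3, and 637 and 2 against 1 and 10.

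SLC27A2, which activates very long-chain fatty acids, was the one gene of these 10 in which each of 3 sgRNAs was lower in both NMYC libraries. Its sums were 107 and 154 CPM in parental cells and 27.0 and 8.39 in NMYC cells (130 ± 33.2 against 17.7 ± 13.2; log2 value -2.75). The sgRNAs had 112 and 493, 771 and 2074, and 760 and 41 counts in parental cells, and 4 and 8, 412 and 112, and 1 and 4 counts in NMYC cells. The parental replicates of the last sgRNA were themselves far apart, at 760 and 41.

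Several of the lowest ranks rested on a single sgRNA. One sgRNA of STX18, a syntaxin of the endoplasmic reticulum, had 1342 and 507 counts in parental cells and 0 and 1 in NMYC cells (edgeR unadjusted p = 0.000113, adjusted p = 0.603), while the others had 582 and 555 against 1168 and 410, and 295 and 29 against 416 and 79. The sums of STX18 overlapped, at 144 and 64.3 CPM against 103 and 33.2 (log2 value -0.52). ARPP21, a phosphoprotein of neurons, had one sgRNA at 2040 and 1128 counts against 5 and 12 (unadjusted p = 2.2e-05, adjusted p = 0.368), with overlapping sums and a log2 value of -1.14. OR8B12, an olfactory receptor gene of the families not expected to be expressed here, had one at 1758 and 272 counts against 0 and 3, and a log2 value of -0.35 over all its sgRNAs. SCAND3 had a log2 value of -0.25 and overlapping sums. ANP32B, a histone chaperone, had 2 of 3 sgRNAs on the lower side. One had 664 and 253 counts against 0 and 0, at least 146-fold lower in NMYC cells against a floor of 3 counts per library. Another had 834 and 10 counts against 0 and 3. The last lay on the higher side, with 1 and 14 counts against 450 and 40. BTNL9, of the butyrophilin family, had 79.9 and 52.1 CPM against 2.53 and 4.74 (-3.92), with 2 of 3 sgRNAs on the lower side.

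The lowest single sgRNA by p was one against VBP1, a subunit of the prefoldin chaperone, with 1154 and 1223 counts in parental cells and 1 and 1 in NMYC cells (edgeR unadjusted p = 2.08e-05, adjusted p = 0.368). After it came the sgRNAs of ARPP21, STX18, BTNL9 and OR8B12. At the other end MEX3C had one with 2 and 2 counts against 567 and 1883 (unadjusted p = 1.23e-05, adjusted p = 0.368), followed by sgRNAs against KALRN, OR9I1, NXF3 and SERPINE3. An olfactory receptor gene stood among the 5 smallest p in each direction.

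The highest ranked genes in NMYC cells were TRIP10, MEX3C, C14orf166B (now LRRC74A), KALRN, C4orf17, OR9I1, SPAST, NXF3, SERPINE3 and PARK7. TRIP10, an effector of CDC42 that links membranes to actin, had 1.10 and 2.42 CPM in parental cells and 51.9 and 84.8 in NMYC cells (1.76 ± 0.927 against 68.4 ± 23.2, SD, n = 2; log2 value 5.02; adjusted p = 0.605, and 0.444 to 0.999 over the alternatives). One of its sgRNAs had 1 and 0 counts against 637 and 10, another 0 and 0 against 147 and 2, and the third 16 and 41 against 18 and 1241. All 3 were thus higher in the group mean, and in each the NMYC replicates differed by over 4-fold.

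MEX3C, an RNA-binding ubiquitin ligase, had 17.5 and 6.83 CPM against 76.7 and 181 (log2 value 3.44; adjusted p = 0.890). C14orf166B had 2.14 and 13.1 CPM against 56.5 and 157 (3.82), and C4orf17 had 3.05 and 7.25 against 60.3 and 124 (4.13). In both of these genes all 3 sgRNAs were higher in both NMYC libraries than in both parental ones. PARK7, a protein of oxidative stress defence, had 3.38 and 17.4 CPM against 40.5 and 170 (3.37), and NXF3, of the nuclear RNA export family, 33.4 and 13.0 against 118 and 187 (2.78). Only 1 of the 3 PARK7 sgRNAs was separated between the arms, and another had 5 and 0 counts against 1 and 855. SPAST, which severs microtubules, had a log2 value of 2.76 and overlapping sums, since its second NMYC library, at 1.76 CPM, lay below both parental ones. KALRN (1.51), OR9I1 (0.83) and SERPINE3 (2.61) also overlapped. One sgRNA of SPAST had 180 and 15 counts in NMYC cells and another 234 and 1, and both had 0 in every parental library, T0 included. Each of the genes other than TRIP10 had an adjusted p of 0.890 by rank aggregation on edgeR p-values.

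Agreement between sgRNAs of a gene was described without a test. In 62 of the 12834 genes with 3 kept sgRNAs (0.483%) every sgRNA was lower in both NMYC libraries than in both parental ones, and in 49 (0.382%) every sgRNA was higher. With total counts in place of TMM factors these numbers were 45 and 64, so the side with more genes depends on the scaling. Single sgRNAs were separated in this way in 17.8% of cases on the lower side and 17.3% on the higher side, against 15.1% and 18.8% of the non-targeting controls. At the rates over all sgRNAs, 3 unrelated sgRNAs would be separated together in a share of genes no smaller than those seen. The 62 and 49 genes are thus no sign of agreement between sgRNAs of a gene. Log2 values ran from -5.01 to -0.46 in the 62 genes and from 0.81 to 4.9 in the 49.

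CLPX, the unfoldase that feeds a mitochondrial protease, stood lowest of the 62, with 79.0 and 46.8 CPM in parental cells against 0.194 and 2.50 in NMYC cells (62.9 ± 22.7 against 1.35 ± 1.63, SD, n = 2; log2 value -5.01; rank aggregation on edgeR p, unadjusted p = 0.00156, adjusted p = 0.975). Its sgRNAs had 458 and 628, 511 and 109, and 246 and 58 counts in parental cells, and 1 and 3, 2 and 30, and 0 and 4 in NMYC cells. PITPNM3, a membrane-associated phosphatidylinositol transfer protein, followed with 56.9 and 70.0 CPM against 1.17 and 3.25 (-4.47). TMEM199 (now VMA12), an assembly factor of the proton-pumping V-ATPase, had 117 and 43.0 CPM against 4.21 and 2.17 (-4.36). FAM168B at -3.30 and LOXL3, a lysyl oxidase, at -3.01 came next.

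At the top of the 49 stood CCNC, cyclin C of the Mediator kinase module, with 2.27 and 1.53 CPM in parental cells against 52.3 and 81.1 in NMYC cells (1.90 ± 0.525 against 66.7 ± 20.4; log2 value 4.90; adjusted p = 0.989). Its sgRNAs had 4 and 9, 5 and 12, and 26 and 5 counts in parental cells, and 141 and 973, 346 and 196, and 320 and 30 in NMYC cells. LILRB2, a leukocyte receptor, had a log2 value of 4.79, CTSG, a protease of neutrophils, 4.54, HMGXB3, an HMG-box protein, 4.40, and C4orf17 4.13. LILRB2 and CTSG are genes of blood cells, and their values were close to that of CCNC.

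Of the genes described for their role in this model, none passed. NEUROG2 had 33.3 and 7.13 CPM in parental cells and 45.8 and 93.4 in NMYC cells (20.2 ± 18.5 against 69.6 ± 33.6, SD, n = 2; log2 value 1.85; adjusted p on the higher side 0.998). Both NMYC sums thus lay above both parental ones, on the side opposite to depletion. Its 3 sgRNAs had 341 and 77, 9 and 15, and 162 and 29 counts in parental cells, and 512 and 112, 0 and 62, and 196 and 1206 in NMYC cells. Only the last of them was separated between the arms, and much of the NMYC level came from its second replicate.

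MYCN itself had 13.7 and 33.8 CPM in parental cells and 2.07 and 122 in NMYC cells (log2 value 1.46; adjusted p on the higher side 0.989). The NMYC replicates lay on opposite sides of the parental ones, and without NMYC replicate 2 the value was -4.81. One sgRNA of MYCN had 29 and 1097 counts in the NMYC cultures. MYC had 27.2 and 3 CPM against 47.5 and 1.83 (0.78), and MAX, the partner of both, 111 and 35.0 against 40.4 and 9.20 (-1.45, with 2 sgRNAs). All 3 overlapped between the arms.

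The sums of 5 further genes of this group overlapped between the arms. FOXA1 and HOXB13, both luminal transcription factors, had log2 values of 0.77 and -0.45. The methyltransferase EZH2 lay at -0.44, the kinase AURKA, which stabilises N-MYC, at 0.14, and the tumour suppressor RB1 at 1.51.

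Gene lists were described by counts, each beside the same figure over all genes, and chosen with earlier results of these data known. In 0 of 17 lists, and in none of the unexpressed gene families set beside them, did a member pass after adjustment. Over all genes 50% lay below the median gene by definition, and the sums of 19.4% were lower in both NMYC libraries than in both parental ones, and of 14.7% higher.

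Cytosolic ribosomal protein genes had a median log2 value of -0.499 over 72 genes, and 45 of them lay below the median gene. This was the lowest list median with the main settings, which use TMM factors. The synthetase list described next was lower with total counts (-0.44 against -0.40) and with non-targeting factors (-0.43 against -0.40), so their order depends on the scaling. At an unadjusted p under 0.05 there were 8 lower (11.1%) and 4 higher (5.56%), against 5.02% and 4.89% of all genes. The sums of 23 members (31.9%) were lower in both NMYC libraries and of 7 (9.72%) higher. Relative to the median gene of each library, the median ribosomal gene lay at -0.06 and -0.23 in the parental libraries and at -0.55 and -0.86 in the NMYC libraries, so the arms did not overlap. The unexpressed gene families, 485 genes, lay at 0.14 and 0.21 in parental and at 0.29 and 0.30 in NMYC cells, which also did not overlap, with a median log2 value of 0.01.

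The members ranged widely, from -3.15 for RPL35A to 4.51 at the highest. RPLP0, of the ribosomal stalk, had the smallest p on the lower side among those with 3 sgRNAs, with 204 and 105 CPM against 29.3 and 8.46 (log2 value -2.91; unadjusted p = 0.00239, adjusted p = 0.975). Only 1 of its sgRNAs was separated between the arms. The others had 2 and 1062 counts against 26 and 10, and 1263 and 46 against 162 and 5. RPS19 had 43.3 and 39.1 CPM against 7.06 and 6.70 (-2.41), RPS7 had 214 and 62.5 against 21.7 and 34.4 (-2.19), and RPS14 had 174 and 197 against 58.9 and 50.7 (-1.66). On the other side RPL11, which also restrains MDM2, had 4.16 and 38.6 CPM against 69.6 and 97.7 (2.04), and RPS20 had 26.3 and 22.0 against 68.6 and 134 (2.14). In RPL11, too, only 1 of 3 sgRNAs was separated. RPS19, RPS7, RPS14 and RPS20 were named after their values were seen. No ribosomal gene with 3 kept sgRNAs had all of them separated between the arms in the same direction.

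Proteins of the large subunit had a median of -0.54 over 42 genes and those of the small subunit of -0.22 over 30. For the small subunit the NMYC libraries, at -0.55 and -0.32, lay below both parental ones, each at -0.26. For the large subunit they lay at -0.53 and -1.09 against 0.05 and -0.18. Single sgRNAs gave the reverse order of the subunits. Of 78 sgRNAs of the small subunit, 23 (29.5%) were lower in both NMYC libraries than in both parental ones, and 14 were higher. Of 114 sgRNAs of the large subunit, 21 were lower and 18 higher, close to the 17.8% and 17.3% of all sgRNAs. At T6 the whole list had a median of -0.26, with parental libraries at -0.24 and 0.18 and NMYC libraries at -0.46 and -0.21, which overlapped. At T0 its median was 0.03, with both single libraries at 0.07. Where sgRNAs had to reach 30 counts in each T0 library, 41 ribosomal genes were left and their median was -0.09. Under that limit growth-restraining genes had the lowest list median (-0.58) and prostate luminal factors the highest (0.50). The part that abundance at T0 plays in the low ribosomal value was not tested.

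Aminoacyl-tRNA synthetases, which charge tRNAs with amino acids, had 18 of 23 genes below the median gene and a median of -0.386. The sums of 6 members (26.1%) were lower in both NMYC libraries and of 0 higher: EPRS (-2.60), HARS (-2.41), FARSA (-1.97), SARS (-1.41), MARS (-1.27) and the scaffold protein EEF1E1 (-1.01), all 6 named after their values were seen. NARS, the lowest by p with 3 sgRNAs, had 211 and 25.7 CPM against 26.5 and 59.2 (-1.36; unadjusted p = 0.106), and WARS, the highest, had 25.3 and 31.3 against 62.0 and 2.71 (0.28; unadjusted p = 0.0484). One sgRNA of WARS had 0 counts in every parental library, T0 included, and 239 and 0 in the NMYC T12 libraries. The list medians per library overlapped, at 0.05 and -0.54 in parental and -0.57 and -0.10 in NMYC cells. At T6 and T0 the list lay on the other side, with medians of 0.47 and 0.37.

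The other lists of core machinery lay nearer to the median gene. The list medians per library did not overlap between the arms in 4 of the 17 lists, namely the ribosome, spliceosome, mitosis and candidate synthetic lethal lists, and in each both NMYC libraries were lower. For the spliceosome they were 0.138 and 0.0387 in parental and -0.105 and -0.49 in NMYC cells. For mitosis they were 0.339 and -0.0235 against -0.116 and -0.0968. The mitotic list nevertheless had a median log2 value near 0, since the median of the members' differences is not the difference of their medians. With 2 libraries against 2, separation in either direction is common without a difference, since an exact permutation p cannot go below 0.333. Gene sums lower in both NMYC libraries made up 17.1% of spliceosome, 21.2% of mitotic and 14.7% of candidate synthetic lethal genes (all genes 19.4%). Those higher made up 11.4%, 13.6% and 9.33% (all genes 14.7%). Over the 70 spliceosome genes the median log2 value was -0.19, and 43 lay below the median gene. RBM17, a splicing factor, had 79.9 and 13.3 CPM against 1.88 and 5.75 (log2 value -3.35), and SF3B14 (now SF3B6), of the U2 particle, ranked on the higher side with a log2 value of -0.15. Among RNA polymerase II and general transcription genes, with a median of 0.0554, the Mediator subunit MED7 had 52.4 and 79.1 CPM against 5.57 and 4.53 (65.8 ± 18.9 against 5.05 ± 0.732, SD, n = 2; -3.48) and CCNC stood on the other side, as given above. Both are Mediator components, and their sums were separated between the arms in opposite directions. Proteasome genes had a median of -0.0281, with PSMB6 at -0.65 and PSMA7 at 1.15, both of the catalytic core particle. DNA replication genes had -0.0774, with the helicase subunits MCM2 at -1.42 and MCM7 at 1.25. Mitotic genes had -0.00486, with the kinase PLK1 at -0.52 and the midzone motor KIF23 at -0.07. Mitochondrial respiration and translation genes had 0.194, with UQCRC2, of complex III, at -2.73 and SDHD, of complex II, at 1.77.

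Lists closer to N-MYC biology had no clear side. The MYC and MAX network had a median of 0.143, with 16 of 33 genes below, and candidate MYC or MYCN synthetic lethal genes, a median of -0.0553, with 40 of 75 below. The latter list lay at 0.078 and 0.0238 in parental and -0.0762 and -0.0378 in NMYC cells. In both lists PLK1 had the smallest p on the lower side (129 and 68.9 CPM against 74.8 and 53.7; log2 value -0.52; unadjusted p = 0.0144). One sgRNA of PLK1 had 263 and 573 counts in parental and 0 and 0 in NMYC cells, at least 128-fold lower against the same floor, while another had 1718 and 570 against 1072 and 506. The third went the other way, with 0 and 26 counts against 84 and 288, higher in both NMYC libraries. MYCN and the kinase CDK2 (0.54) had the smallest p on the higher side. One sgRNA of CDK2 had 0 counts in every parental library, T0 included, and 0 and 529 in the NMYC T12 libraries. RUVBL2, a helicase of MYC cofactor complexes, had 132 and 72.8 CPM against 22.7 and 10.1 (-2.52), and its fellow subunit KAT5 had 0.520 and 0.943 against 34.2 and 2.98 (4.05), both named after their values were seen. Neural and neuroendocrine factors had 0.197, with SCG3, a granule protein, at -2.68 and the marker CHGA at 1.86. At an unadjusted p under 0.05 this list had 2 lower (4.76%) and 5 higher genes (11.9%), against 5.02% and 4.89% of all genes. The sums of 9 members (21.4%) were lower in both NMYC libraries and of 9 (21.4%) higher. The list median was -0.32 with the median over sgRNAs and 0 without parental replicate 1. The prostate luminal list had -0.091, with the ubiquitin ligase adaptor SPOP at 0.65 although ranked on the lower side.

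The Polycomb and DNA methylation list lay at a median of 0.268, and 14 of 34 members were below the median gene. Its sign turned without parental replicate 1 (-0.05) and without NMYC replicate 2 (-0.09), and it was 0.60 without parental replicate 2 and 0.45 without NMYC replicate 1. SUZ12, a core subunit of PRC2, had 0.065 and 6.66 CPM in parental cells and 63.1 and 27.8 in NMYC cells (3.36 ± 4.66 against 45.4 ± 24.9, SD, n = 2; log2 value 3.67; unadjusted p = 0.000954, adjusted p = 0.890). Its sgRNAs had 1 and 103, 0 and 7, and 0 and 3 counts in parental cells against 689 and 411, 165 and 0, and 120 and 0 in NMYC cells, so 2 of them were seen in a single NMYC culture. EZH2, its catalytic partner, lay at -0.44 and RING1, of PRC1, at -0.99. In the homologous recombination list (-0.21), the helicase BLM had 110 and 67.6 CPM against 2.46 and 1.42 (-5.10; unadjusted p = 0.00258, adjusted p = 0.975). RMI2, which works in a complex with BLM, had 3.25 and 2.12 CPM against 46.0 and 145 (5.01; unadjusted p = 0.00276, adjusted p = 0.989). The pair stood on opposite sides of the comparison. Of the 3 BLM sgRNAs only 1 was separated between the arms, with 1369 and 429 counts against 13 and 0. The others had 328 and 1 counts against 23 and 20, and 0 and 718 against 2 and 1, so each was abundant in a single parental culture. At T0 RMI2 already had 2.41 CPM in the parental and 95.2 in the NMYC library (log2 value 5.33), and SUZ12 had 0.633 and 19 (4.39), whereas BLM had 22.9 and 27.4 (0.54).

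Growth-restraining genes had a median of -0.135, with the WNT pathway gene APC at -1.13 and RBL1, a relative of RB1, at 1.58. Nucleotide, polyamine, serine and glutamine metabolism had -0.05, with the translation factor EIF5A at -2.01 and the ribonucleotide reductase subunit RRM2 at -0.37 although ranked on the higher side. PI3K, mTORC1 and nutrient sensing had 0.0214. In it RRAGA, a RAG GTPase that recruits mTORC1, had 71.0 and 51.3 CPM against 6.80 and 8.05 (-2.87), and FLCN, a regulator of RAG GTPases, 12.8 and 28.0 against 75.6 and 153 (2.55).

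The same difference was then read at T6 (2 against 2) and T0 (1 against 1), whose libraries are not part of the T12 comparison but come from the same infections. Across 17721 genes, which are not independent replicates, the T12 difference had a Spearman correlation of 0.0715 with the T6 difference and of -0.00202 with the T0 difference. The standard deviation over genes was 1.94 log2 units at T0, between single libraries, 0.951 at T6 and 1.21 at T12. Of the 62 genes with every sgRNA lower at T12, 34 were below the median gene at T6 (54.8%) and 35 at T0 (56.5%), against 52.4% and 49.9% of all genes below 0 at T12. Of the 49 higher genes, 34 were above the median gene at T6 (69.4%) and 21 at T0 (42.9%), against 52.4% and 49.9% of all genes above 0 at T12.

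TRIP10 kept its side at all 3 times, with log2 values of 3.60 at T0, 2.45 at T6 and 5.02 at T12. In the T0 libraries it had 0.380 CPM in parental and 8.23 in NMYC cells, so its sgRNAs were scarce in the parental arm from the start. BTNL9 also kept its side, at -5.29, -1.79 and -3.92. CLPX had 0.317 CPM in parental and 7.34 in NMYC cells at T0 (3.55), then -0.89 at T6 and -5.01 at T12. NEUROG2 had 0.570 CPM in the parental and 46.5 in the NMYC library at T0 (5.75), and -0.31 at T6. MYCN had 66.8 CPM against 2.41 at T0 (-4.24) and 0.78 at T6. PARK7, on the higher side at T12, was at -2.95 at T0 and -2.10 at T6. CCNC had 36.0 and 34.6 CPM at T0 (0.23) and a value of 1.46 at T6, but the T0 sums rested on 1 sgRNA with 569 and 538 counts, while the others had 0 and 0 counts in the parental and 46 and 5 in the NMYC library.

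Single sgRNAs that were nearly gone from one arm were rare. With at most 3 counts in both NMYC libraries and at least 100 in both parental ones there were 143 sgRNAs (0.286%), of which 2 were non-targeting, and the reverse held for 88 (0.176%), also with 2 non-targeting. Non-targeting controls met these limits at 0.226% in each direction. The 143 targeted 141 genes and the 88 targeted 86, and in 0 genes did 2 or more sgRNAs meet the limit together. Of the 143, 43 (30.1%) already had under 10 counts in the NMYC T0 library, against 10.3% of all kept sgRNAs, and of the 88, 51 (58%) had under 10 in the parental T0 library, against 20.5%. Only 36 and 17 had 100 counts or more in the T0 library of the arm in which they were later scarce.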

How the data were processed

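The authors deposited unnormalized sgRNA read counts in a single table. Per the submitters' processing notes MAGeCK was used, with no version. Trimming, allowed mismatches and any earlier filter are not stated there. Columns were matched to samples by name. The sgRNAs that averaged 20 counts or more in the 4 T12 libraries entered edgeR 4.0.16 (R 4.3.3), with TMM factors and the quasi-likelihood test. Only these 4 libraries entered the fit, since the comparison holds no T0 library. Gene p-values came from rank aggregation (alpha from a one-sided p of 0.25, exact null), adjusted by Benjamini-Hochberg in each direction at 0.05, for genes with at least 2 sgRNAs. With 2 libraries against 2, an exact permutation test of a single value cannot go below 0.333, so none was run. T6 and T0 values used the same sgRNAs with TMM factors of their own time point. DESeq2 1.42.0 was an alternative. The code was tested on simulated data.

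Members and lists were chosen with earlier results of these data known. Named genes are the 10 smallest p per direction with at least 3 sgRNAs, a fixed set of 12 (some of which are not reported here), the smallest p per direction in each list, the 5 largest log2 values per direction among separated genes, and the 5 smallest p per direction among sgRNAs. Current symbols in brackets come from RefSeq (GRCh38.p14). No coordinates are printed, since the table names no build. The alternatives, 17 in all, changed normalization, filter, tool, libraries, gene score or left out 1 library.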

Additional observations from a re-analysis of the deposited data

Results flagged for a closer look

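In 5 named genes both NMYC libraries lay on one side of both parental libraries at T12 and on the other side at T6, and this difference between the times was not tested. The T6 log2 value was -0.55 for C4orf17 against 4.13 at T12, -2.10 for PARK7 against 3.37, 2.10 for PITPNM3 against -4.47, 1.00 for RRAGA against -2.87, and 1.15 for RRM2 against -0.37. RRM2 was barely separated at T12, with 47.5 and 37.4 CPM in parental and 24.1 and 37.3 in NMYC cells. Over all genes tested, the sums of 2047 were separated between the arms at both times, 1222 in the same direction and 825 in opposite directions.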

How the results depend on the processing

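The counts of genes past 0.05 stayed at 0 in both directions under all 17 alternatives, and 0 of the 67 named genes passed under any in which they kept enough sgRNAs. Single sgRNAs called by DESeq2 were 1411 lower and 1179 higher, against 0 and 0 by edgeR; the cause was not tested. With all 10 libraries in the fit 1 sgRNA was lower, against RBM15, with 253 and 134 counts in parental and 0 and 0 in NMYC cells. At T0 this sgRNA already had 6128 counts in the parental and 12 in the NMYC library, and at T6 18 and 0 against 2 and 29. The other RBM15 sgRNAs had 816 and 105 counts against 146 and 419 at T12, and 72 and 0 against 0 and 0. Separated genes numbered 40 lower and 33 higher with a mean count of at least 50, and 11 and 7 where sgRNAs had to reach 30 counts in each T0 library, where fewer genes were tested. When 1 library was left out the ranges were 367 to 503 lower and 350 to 542 higher, since 1 library against 2 is separated more easily. Replicate numbers did not pair the cultures (correlation of deviations -0.00521 over sgRNAs), and with the replicate block the counts were 0 and 0 genes and 0 and 0 sgRNAs.

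With the median over sgRNAs in place of the sum, the sign turned for ARPP21 (0.18), STX18 (0.62), OR8B12 (1.08), SCAND3 (1.26) and SF3B14 (4.35), and STX18 was 0.67 under the T0 limit of 30 counts; the cause was not tested. Leaving out 1 library turned 17 named genes: STX18 (-1.56 to 0.30), OR8B12 (-1.22 to 1.57), SCAND3 (-0.66 to 0.04), KALRN (-0.13 to 2.52), MYCN (-4.81 to 2.41), MYC (-3.94 to 3.57), HOXB13 (-1.98 to 1.52), EZH2 (-1 to 0.16), AURKA (-0.81 to 0.97), RB1 (-0.47 to 2.80), SF3B14 (-0.71 to 0.34), MCM7 (-0.53 to 3.40), NARS (-2.26 to 0.74), WARS (-3.08 to 1.45), KIF23 (-0.73 to 0.45), SPOP (-1.12 to 1.65) and CDK2 (-0.39 to 2.91). The ribosomal median ran from -0.52 to -0.09 and the synthetase median from -0.68 to -0.15 over the alternatives. The synthetase median was the lower of the pair also with summed counts (-0.45 against -0.42), with the median over sgRNAs (-0.63 against -0.39), under the T0 limit (-0.18 against -0.09) and without parental replicate 1 (-0.56 against -0.28) or 2 (-0.68 against -0.46). Without NMYC replicate 1 the DNA replication (-0.49) and spliceosome (-0.41) medians lay below the ribosomal one (-0.39). Under at least 1 alternative 11 list medians, that of the unexpressed families included, moved by more than the replicate spread. Of the list medians, those of the ribosome, synthetase, spliceosome and DNA replication lists kept their sign under every alternative, and those of the other lists did not.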
